A study of Homo sapiens with 6 samples.

Results

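The genes described here encode junction adhesion proteins, and their transcripts were measured in Caco-2 cells, whether or not these cells express them. They are claudins, cadherins, the desmosomal cadherins and plaque proteins, occludin and its relatives, alpha-catenin and EPCAM. They were taken by name as the probe sets with exactly 1 gene symbol in the platform annotation, where the symbol is CLDN, CDH, DSG, DSC or PKP followed by a number or is DSP, JUP, OCLN, F11R, MARVELD2, MARVELD3, CTNNA1, CTNND1 or EPCAM, with a pair of classical cadherins left out. This gave 119 of 54613 probe sets, which stand for 57 of 19775 genes. F11R and CTNND1 had no probe set of their own by this rule and were not analysed here. The 57 genes are 20 claudins (35 probe sets), 19 cadherins (42 probe sets), 13 desmosomal and plakophilin genes (27 probe sets), the 3 genes OCLN, MARVELD2 and MARVELD3 (9 probe sets) and CTNNA1 and EPCAM (6 probe sets). The series has 6 Affymetrix arrays of total RNA from Caco-2, a line from a human colorectal adenocarcinoma that forms an enterocyte-like sheet in culture. Of these, 3 arrays are of cells given a negative control siRNA and 3 of cells given an siRNA against SDC1, which encodes syndecan-1, a heparan sulfate proteoglycan of the epithelial surface. All 6 come from 1 cell line, and neither the siRNA's sequence nor the time after transfection is known here. The question is whether transcripts of the proteins that join epithelial cells to each other differ when SDC1 is targeted.

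Epithelial cells of the gut are held together by a stack of junctions. Tight junctions lie nearest the lumen, where claudins polymerise into strands that either seal the space between cells or form charge-selective pores, and occludin and tricellulin (MARVELD2) organise those strands. Below them, cadherins bind the same kind of molecule on the next cell and are tied to actin through catenins. Desmosomes use their own cadherins, the desmogleins and desmocollins, which plakoglobin (JUP), plakophilins and desmoplakin (DSP) anchor to keratin filaments. EPCAM binds and stabilises CLDN7 in the intestine.

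Values are log2 signals relative to the median of the 6 arrays for each probe set, so that differences between the groups can be read and levels of different genes cannot be compared. A rough signal class (8 to 16, 4 to 8 or below 4 on the log2 scale) was read from the number steps in which the values are stored. By that reading 16 of the 57 genes had their brightest probe set in the class of 8 to 16, 27 in that of 4 to 8 and 14 below 4. A gene's value is the mean over its probe sets of the brightest class it reaches. Differences are SDC1 siRNA minus control siRNA on the log2 scale with the moderated standard error, and tests are limma fits over all 19775 genes or all 54613 probe sets with Benjamini-Hochberg adjustment.

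The siRNA target was lower in its own arrays. SDC1 gave relative signals of 0.37, 0.35 and 0.35 in control replicates 1, 2 and 3 and -0.50, -0.62 and -0.34 in SDC1 siRNA replicates 1, 2 and 3, and the groups did not overlap. The difference was -0.84 ± 0.084 (limma adjusted p = 0.0238, an exact two-sided permutation p of 0.1, the smallest that 3 arrays against 3 allow). The adjusted p missed the threshold with the replicate block (0.0929), after a second quantile normalization (0.083) and whichever single array was left out (0.0615 to 0.326, limma). Of the control arrays, replicate 2 was the one farthest from its group mean most often, in 39.4% of all probe sets and 38.7% of the junction probe sets. Of the SDC1 siRNA arrays it was replicate 3, in 38.5% of all probe sets and 37.8% of the junction probe sets.

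None of the 57 junction genes changed past the threshold. In the limma fit over all genes 0 of 57 reached an adjusted p of 0.05 (9 had an unadjusted p under 0.05), against 5 of all 19775 genes (0.0253%, among them SDC1 and MPDZ), and the lowest adjusted p among the members was 0.126, for CDH10. Tested as single probe sets, 0 of 119 passed, as did 0 of all 54613 (0%), and the lowest adjusted p was 0.322. An unadjusted p under 0.05 was found for 10 of 119 member probe sets (8.40%) and 8.33% of all probe sets. Of those 10 members 6 were higher with SDC1 siRNA and 4 lower, where 4.18% of all probe sets were higher and 4.15% lower. With single arrays left out the 10 became 6 to 12, 6 without control replicate 1 (7.60% of all probe sets in that setting) and 6 without SDC1 siRNA replicate 1 (6.08%), and over the 6 settings the share of all probe sets ran from 5.64% to 9.99%. Among genes the shares were 9 of 57 (15.8%, 6 higher and 3 lower) and 10.6%. Groups that did not overlap were found in 12 of 57 junction genes (21.1%, 8 higher and 4 lower) and 16.7% of all genes (8.26% higher and 8.47% lower). At the level of probe sets they were found in 20 of 119 (16.8%, 13 higher and 7 lower) and 14.5% of all (7.06% higher and 7.42% lower). The median difference over the 57 genes was 0.028, with 36 above 0 and 21 below, and over all genes it was 0.0060. The median size of a difference was 0.078 for the members and 0.079 for all genes. Leaving out 1 array turned the sign of 28 of the 57 differences and moved another 19 by over 1.5 times. Such counts were not made for all genes, so they show no trait particular to the junction genes. The 10 that moved by less were CDH10, CDH16, CLDN20, CLDN15, DSP, CLDN2, CDH26, CLDN4, CLDN12 and CDH8, so counts above and below 0 rest in good part on values that 1 array can turn. In 55 of 57 genes (96.5%) the 95% interval lay between 1.5-fold lower and 1.5-fold higher, as in 96.9% of all genes. The exceptions were CDH10 and CDH5. These bounds are wide beside the median size of a difference, 0.078.

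**Figure D1:**
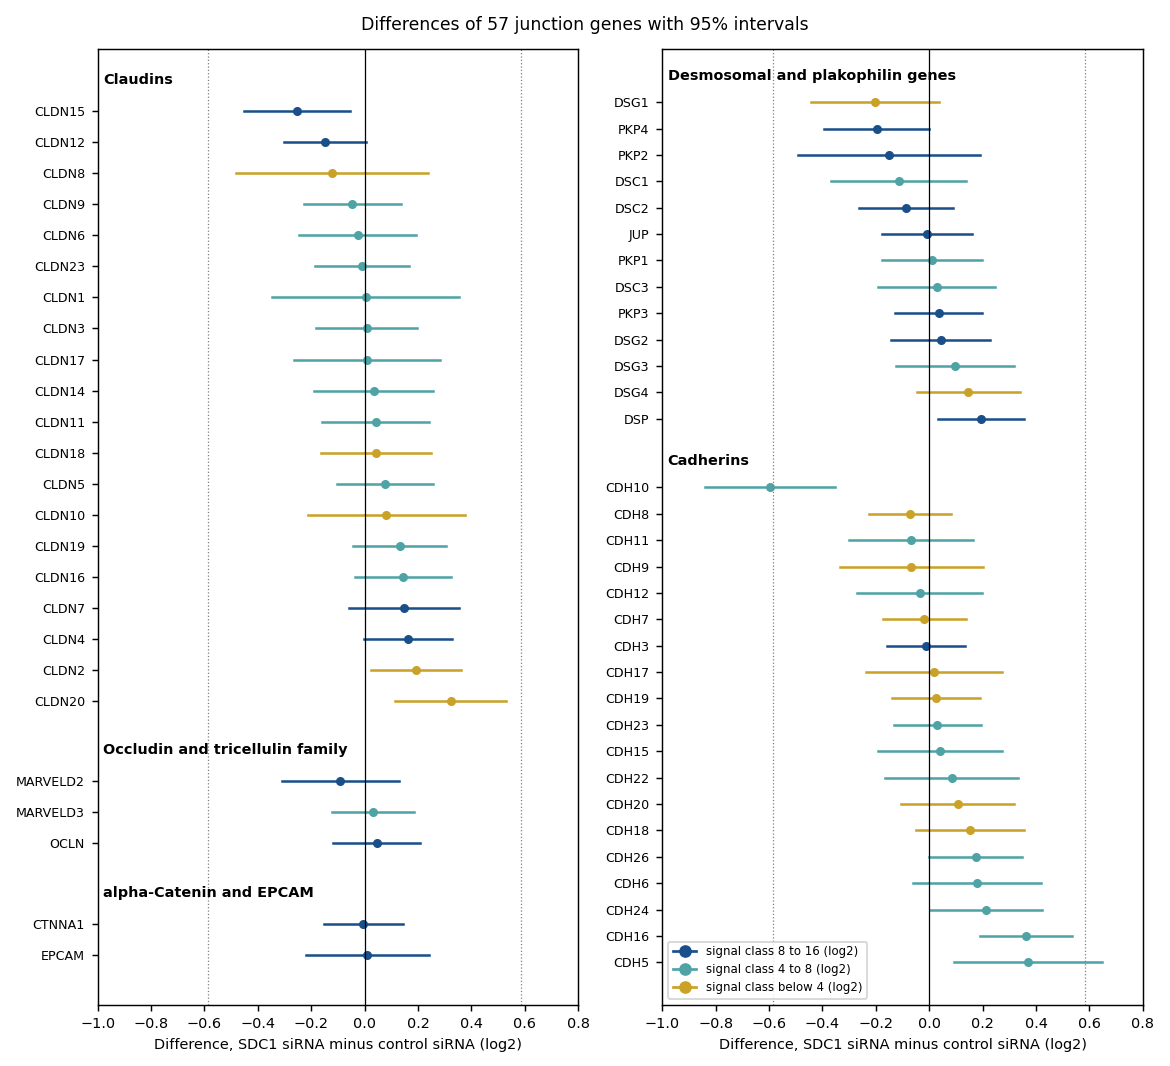
Each point is the difference of a junction gene (SDC1 siRNA minus control siRNA, log2, horizontal axis) and each line its 95% interval from the limma fit, in role groups ordered by difference and coloured by signal class, with dotted lines at a 1.5-fold change. Of the 57 intervals, 48 include 0, and CDH10 at -0.60 is the point farthest from it.

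**Figure D2:**
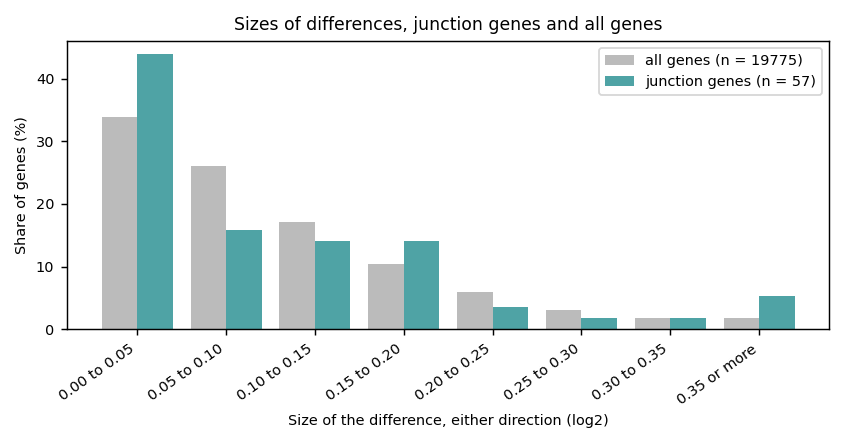
Bars give the share of genes (%) by the size of their difference in either direction (log2), in grey for all 19775 genes and in green for the 57 junction genes. Of the 57, 25 lie below 0.05 and 3 at 0.35 or more.

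The bases just before the start of 4 of these genes are shown here because the results below come back to them: DSP and DSG2, bright desmosomal genes, and CLDN15 and CDH10, which had the lowest p among the brightest claudins and among all members. Each line is the 250 bases before the RefSeq start (GRCh38.p14), 5′ to 3′ on the strand of the gene. Capitals mark CAGGTG or its reverse complement CACCTG, the E-box that repressors of the Snail family bind. The regions are chr6:7541421-7541670, plus strand for DSP, chr18:31497927-31498176, plus strand for DSG2, chr7:101237803-101238052, minus strand for CLDN15 and chr5:24644979-24645228, minus strand for CDH10.
DSP: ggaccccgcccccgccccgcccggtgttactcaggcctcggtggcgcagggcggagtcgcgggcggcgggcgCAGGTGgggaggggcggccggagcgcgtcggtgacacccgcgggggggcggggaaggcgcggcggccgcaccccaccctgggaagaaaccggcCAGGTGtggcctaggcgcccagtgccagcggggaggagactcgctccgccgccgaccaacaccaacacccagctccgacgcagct
DSG2: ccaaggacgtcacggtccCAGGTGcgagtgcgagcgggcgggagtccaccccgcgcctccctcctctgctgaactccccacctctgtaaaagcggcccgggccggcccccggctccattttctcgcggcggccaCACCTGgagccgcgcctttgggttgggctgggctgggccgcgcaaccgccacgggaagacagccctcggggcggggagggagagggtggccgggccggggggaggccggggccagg
CLDN15: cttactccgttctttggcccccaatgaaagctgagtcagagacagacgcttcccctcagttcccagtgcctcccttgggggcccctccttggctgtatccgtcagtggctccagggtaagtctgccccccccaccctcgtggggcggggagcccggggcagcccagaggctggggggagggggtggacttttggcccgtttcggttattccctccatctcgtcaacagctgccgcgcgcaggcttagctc
CDH10: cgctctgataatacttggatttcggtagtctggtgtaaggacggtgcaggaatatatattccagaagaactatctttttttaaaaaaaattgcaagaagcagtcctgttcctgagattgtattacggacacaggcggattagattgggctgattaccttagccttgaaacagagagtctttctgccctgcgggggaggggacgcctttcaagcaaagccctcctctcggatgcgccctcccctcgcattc
The DSP window holds CAGGTG 178 and 85 bases before the start. The DSG2 window holds CAGGTG 232 bases and CACCTG 116 bases before the start. No match lies in the windows of CLDN15 and CDH10. These 4 genes do not stand for the 38 with windows. Matches also lie before JUP, at a difference of -0.0091, and DSC2, at -0.087, both bright desmosomal genes. CLDN20, at 0.32, and CDH26, at 0.17, have windows and no match.

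Claudins that form pores were found on both sides of 0. CLDN15, a cation and water channel of the small intestine, gave relative signals of 0.25, 0.021 and 0.27 in control replicates 1, 2 and 3 and -0.021, -0.051 and -0.15 in SDC1 siRNA replicates 1, 2 and 3. Every SDC1 siRNA array was below every control array, with control replicate 2 close to the SDC1 siRNA values. Its means were 0.18 ± 0.14 (SD, n = 3) in the control arrays and -0.074 ± 0.068 (SD, n = 3) in the arrays of cells given the SDC1 siRNA, and the difference of -0.25 ± 0.087 did not pass (limma adjusted p = 0.356). That value is from the probe set in the class of 8 to 16. The other CLDN15 probe set, in the class of 4 to 8, was at -0.12 ± 0.12 with overlapping groups. CLDN2, the cation pore of leaky epithelia and crypts, gave -0.054, -0.12 and -0.053 in control replicates 1, 2 and 3 and 0.22, 0.068 and 0.053 in SDC1 siRNA replicates 1, 2 and 3. Here the SDC1 siRNA arrays all lay above the controls, with a difference of 0.19 ± 0.074 (limma adjusted p = 0.415). It has a single probe set, of the dimmest class. CLDN16, a claudin of magnesium transport in the kidney, was at 0.14 ± 0.078 with separate groups, CLDN10, an ion pore with several isoforms, at 0.081 ± 0.13 and CLDN17, an anion pore, at 0.0079 ± 0.12. CLDN16 was at 0.083 without SDC1 siRNA replicate 1, CLDN10 turned to -0.075 without control replicate 2, and CLDN17 ran from -0.10 without control replicate 2 to 0.13 without control replicate 3. Of these 5 pore-forming claudins 0 passed, and 4 were above 0 and 1 below with all arrays.

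The claudins best known from colon lay between -0.15 and 0.16. CLDN4, a barrier claudin, was at 0.16 ± 0.072 from its bright probe set, with relative signals of -0.11, -0.018 and -0.13 in control replicates 1, 2 and 3 and 0.051, 0.018 and 0.15 in SDC1 siRNA replicates 1, 2 and 3. Control and SDC1 siRNA values did not overlap there, but the highest control and the lowest SDC1 siRNA value lay close together, and the second CLDN4 probe set was at -0.065 ± 0.094. Averaged, the pair gave 0.049. CLDN7, which EPCAM binds, was at 0.15 ± 0.090 with overlapping groups and at 0.076 without control replicate 2. CLDN12, a claudin that lacks the usual PDZ-binding end, gave 0.060, 0.093 and 0.022 in control replicates 1, 2 and 3 and -0.022, -0.14 and -0.11 in SDC1 siRNA replicates 1, 2 and 3. All of its SDC1 siRNA values were lower than the control values, and the difference of -0.15 ± 0.068 did not pass (limma adjusted p = 0.488). CLDN3, a barrier claudin of the gut, was at 0.0078 ± 0.083, with an interval of -0.18 to 0.20. CLDN1, a barrier claudin of skin and gut, was at 0.0040 ± 0.15, with an interval of -0.35 to 0.35, control replicate 3 at 0.43 and control replicate 2 at -0.18. Its difference was -0.12 without control replicate 2 and 0.18 without control replicate 3.

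Among the other claudins CLDN20 had the lowest p. Its relative signals were -0.091, -0.072 and -0.057 in control replicates 1, 2 and 3 and 0.34, 0.057 and 0.35 in SDC1 siRNA replicates 1, 2 and 3, so that 2 SDC1 siRNA arrays stood well above the rest and the third only a little. The difference was 0.32 ± 0.091 (limma adjusted p = 0.287) from 1 probe set in the class below 4. The other 9 claudins ranged from -0.12 for CLDN8, a sealing claudin of distal colon and kidney, to 0.13 for CLDN19, the partner of CLDN16 in the kidney, with 5 above 0 and 4 below. Over all 20 claudins, 0 passed, 14 were above 0 and 6 below, and the median difference was 0.037. All 20 intervals lay within 1.5-fold either way, as did 96.9% of those of all genes.

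The differences of occludin and its relatives were each smaller than their standard error. OCLN, measured by 4 probe sets, gave relative signals of -0.060, 0.018 and -0.0071 in control replicates 1, 2 and 3 and -0.040, 0.0071 and 0.12 in SDC1 siRNA replicates 1, 2 and 3 in its bright probe set. The groups overlapped and the difference was 0.045 ± 0.071, with an interval of -0.12 to 0.21. MARVELD2, tricellulin, which seals the points where cells meet at corners, was at -0.091 ± 0.096, and at -0.19 without SDC1 siRNA replicate 3 and -0.027 without SDC1 siRNA replicate 2. MARVELD3, the remaining relative, was at 0.031 ± 0.067, and between 0.012 and 0.065 with single control arrays left out. The 9 probe sets of the 3 genes lay between -0.091 and 0.055, and none separated the groups.

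EPCAM and alpha-catenin had differences close to 0. EPCAM, the epithelial adhesion molecule that marks most carcinomas of the gut, gave -0.10, 0.23 and -0.056 in control replicates 1, 2 and 3 and 0.11, -0.060 and 0.056 in SDC1 siRNA replicates 1, 2 and 3, where control replicate 2 was the highest array. The difference was 0.0097 ± 0.10, with an interval of -0.22 to 0.24. CTNNA1, alpha-catenin, which links the cadherin complex to actin, was measured by 5 probe sets, and the 3 in the class of 8 to 16 averaged -0.0055 ± 0.065, with an interval of -0.15 to 0.14. Its relative signals were 0.042, -0.022 and -0.025 in control replicates 1, 2 and 3 and -0.044, -0.00046 and 0.022 in SDC1 siRNA replicates 1, 2 and 3, and the groups overlapped.

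Of the 27 probe sets of desmosomal and plakophilin genes 11 were in the class of 8 to 16. DSP, desmoplakin, the plaque protein that binds keratin filaments, gave relative signals of -0.12, -0.11 and -0.045 in control replicates 1, 2 and 3 and 0.19, 0.075 and 0.045 in SDC1 siRNA replicates 1, 2 and 3. Each SDC1 siRNA array was above each control array, with means of -0.091 ± 0.040 (SD, n = 3) in the control arrays and 0.10 ± 0.074 (SD, n = 3) in the arrays of cells given the SDC1 siRNA. The difference of 0.19 ± 0.070 had an interval of 0.033 to 0.35 and did not pass (limma adjusted p = 0.387). It lay between 0.15 and 0.22 in all 14 other settings, and the lowest adjusted p among them was 0.232. The partners of desmoplakin in the plaque lay nearer to 0 or were less precise. JUP, plakoglobin, which ties desmosomal cadherins to desmoplakin, was at -0.0091 ± 0.074, with an interval of -0.18 to 0.16. PKP3, a plakophilin of simple and layered epithelia, was at 0.035 ± 0.071 and PKP1, the plakophilin of skin, at 0.011 ± 0.082. PKP2, the plakophilin of simple epithelia and heart, was at -0.15 ± 0.15 with control replicate 2 at 0.51 and the other controls at -0.013 and -0.10. Without control replicate 2 it was at 0.037.

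Of the desmosomal cadherins of simple epithelia, DSG2 lay within its standard error of 0 and DSC2 just beyond it. DSG2, the desmoglein of simple epithelia, gave -0.041, 0.031 and -0.013 in control replicates 1, 2 and 3 and 0.064, -0.10 and 0.14 in SDC1 siRNA replicates 1, 2 and 3, a range in which the groups overlapped, and a difference of 0.043 ± 0.081. DSC2, its desmocollin partner, was at -0.087 ± 0.077, with single probe sets from -0.20 to 0.049. The cadherins of layered epithelium lay on both sides: DSG1 at -0.20 ± 0.10, DSG3 at 0.097 ± 0.097, DSG4 at 0.15 ± 0.084, DSC1 at -0.11 ± 0.11 and DSC3 at 0.028 ± 0.096. DSG1 was at -0.11 without control replicate 3, DSG4 was at 0.087 without SDC1 siRNA replicate 2, and DSG1 and DSG4 were measured in the class below 4. These 7 genes follow each other in the RefSeq annotation with no other protein-coding gene between them, in the order DSC3, DSC2, DSC1, DSG1, DSG4, DSG3 and DSG2. Along that order the differences were 0.028, -0.087, -0.11, -0.20, 0.15, 0.097 and 0.043, with 3 genes below 0 and 4 above. In the limma fit 0 of 7 had an unadjusted p under 0.05, against 10.6% of all genes.

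PKP4, a plakophilin relative found mostly at adherens junctions, had 4 of its 5 probe sets below 0. Its gene value, the mean of the 2 probe sets in the class of 8 to 16, was 0.062, 0.31 and 0.049 in control replicates 1, 2 and 3 and -0.052, -0.10 and -0.020 in SDC1 siRNA replicates 1, 2 and 3. The groups did not overlap, but control replicate 2 lay far above the other controls. The difference was -0.20 ± 0.086 (limma adjusted p = 0.47) and -0.11 without control replicate 2. The 5 probe sets gave different values. The bright pair were at -0.25 ± 0.10 and -0.15 ± 0.096, and 3 in the class of 4 to 8 were at -0.34 ± 0.090, -0.063 ± 0.11 and 0.017 ± 0.14. The lowest of the 5 separated the groups, at 0.23, 0.27 and 0.074 in control replicates 1, 2 and 3 and -0.17, -0.22 and -0.074 in SDC1 siRNA replicates 1, 2 and 3, with a limma adjusted p = 0.438 among all probe sets. Of the 13 desmosomal and plakophilin genes 0 passed, 7 were above 0 and 6 below, and the median difference was 0.011.

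**Figure D3:**
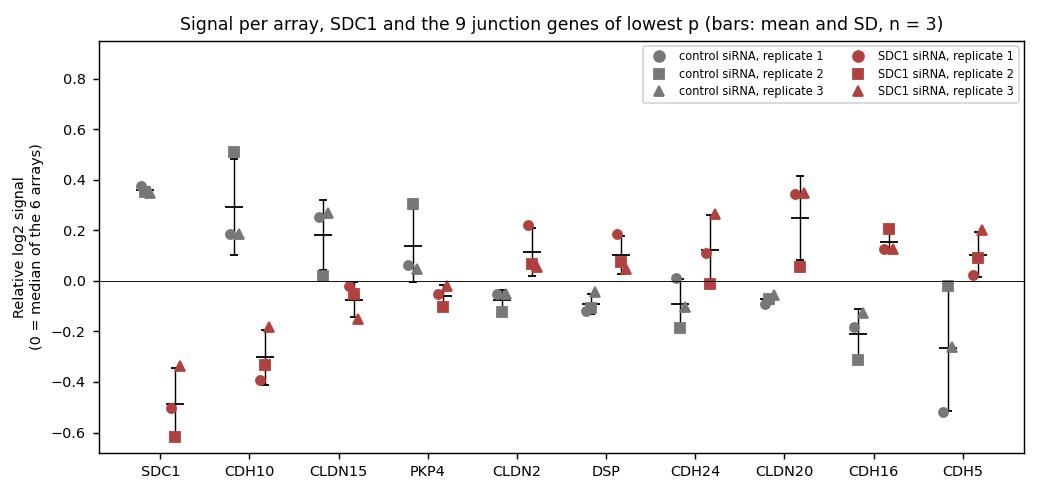
Points are the relative log2 signals of the 6 arrays (vertical axis, 0 is the median of the 6) for SDC1 and for the 9 junction genes with an unadjusted p under 0.05 in the limma fit, in grey for control siRNA and red for SDC1 siRNA, with a marker per replicate number and bars for mean and SD (n = 3). Groups are separate in SDC1 and in 8 of the 9 junction genes; CDH24 overlaps.

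Cadherins held the widest differences of the set. CDH10, a type II cadherin known from brain, gave relative signals of 0.18, 0.51 and 0.18 in control replicates 1, 2 and 3 and -0.39, -0.33 and -0.18 in SDC1 siRNA replicates 1, 2 and 3. All SDC1 siRNA arrays were below all controls, with means of 0.29 ± 0.19 (SD, n = 3) in the control arrays and -0.30 ± 0.11 (SD, n = 3) in the arrays of cells given the SDC1 siRNA. The difference of -0.60 ± 0.11, with an interval of -0.84 to -0.35, is the only one among the 57 that reached 1.5-fold in either direction, as 30 of all genes did. It did not pass (limma adjusted p = 0.126) and rested on 1 probe set in the class of 4 to 8, with control replicate 2 the highest array. Its neighbour in the annotation, CDH9, also a type II cadherin, was at -0.067 ± 0.12. CDH16, the kidney-type cadherin that is the nearest relative of CDH17, gave -0.18, -0.31 and -0.13 in control replicates 1, 2 and 3 and 0.13, 0.21 and 0.13 in SDC1 siRNA replicates 1, 2 and 3. Here the SDC1 siRNA arrays were the higher ones and close together, and the difference was 0.36 ± 0.075 (limma adjusted p = 0.16), again from 1 probe set. CDH17, the liver and intestine cadherin of gut epithelium, was in the class below 4 and at 0.018 ± 0.11, with an interval of -0.24 to 0.27. It was at -0.10 without control replicate 2.

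CDH5, the cadherin of endothelial junctions, gave -0.52, -0.021 and -0.26 in control replicates 1, 2 and 3 and 0.021, 0.089 and 0.20 in SDC1 siRNA replicates 1, 2 and 3. The groups were separate, but the highest control value lay just under the lowest SDC1 siRNA value, and the controls were widely spread. The difference was 0.37 ± 0.12 (limma adjusted p = 0.342). It was 0.24 without control replicate 1 and 0.49 without control replicate 2. Among the 7 endothelial markers measured, CDH5 and CLDN5 included, 2 (28.6%) had an unadjusted p under 0.05, against 10.6% of all genes. They were CDH5 and VWF, the von Willebrand factor, at 0.24 ± 0.089. The mean over the 7, with both junction genes in it, ran from -0.12 to -0.050 in the control arrays and from 0.018 to 0.061 in the SDC1 siRNA arrays. CDH5 enters both the count and the mean, so neither is separate from its own difference. Groups overlapped in ESAM at 0.094, PECAM1 at 0.097, TEK at 0.027 and the VEGF receptor KDR at -0.0089. Of the 7, VWF was in the brightest signal class and CDH5, ESAM, PECAM1, CLDN5 and TEK in the middle one. Only KDR was in the class below 4. The part of endothelial cells in the CDH5 value was not tested. CLDN5, the endothelial claudin, was at 0.078 ± 0.079.

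The other cadherins were nearer to 0 or less well measured. CDH3, placental cadherin and the only cadherin here in the class of 8 to 16, gave 0.045, 0.0023 and -0.028 in control replicates 1, 2 and 3 and -0.0023, 0.013 and -0.027 in SDC1 siRNA replicates 1, 2 and 3. Its difference of -0.012 ± 0.064 had an interval of -0.16 to 0.13. CDH24, a type II cadherin, was at 0.21 ± 0.092 with overlapping groups, and at 0.14 without SDC1 siRNA replicate 3. CDH26, a cadherin of epithelia in allergic inflammation, was at 0.17 ± 0.076 from the 1 of its 4 probe sets in the class of 4 to 8, and at 0.077 over all 4. CDH6, the cadherin of kidney tubules, was measured by 6 probe sets from -0.15 to 0.34. The highest of them, in the class below 4, separated the groups (limma adjusted p = 0.489). The gene value of 0.18 ± 0.10 came from the only CDH6 probe set in the class of 4 to 8, whose groups overlapped. The mean of all 6 was 0.060. CDH19, a cadherin of Schwann cell precursors, likewise had 1 probe set at 0.30 ± 0.10. Its 3 probe sets were all in the class below 4 and averaged 0.026 ± 0.072. Over the 19 cadherins 0 passed, 12 were above 0 and 7 below, and the median difference was 0.031.

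Agreement between probe sets of the same gene sets a limit on how a small difference can be read. Of the 57 genes 25 had 1 probe set and 32 had several. In 13 of those 32 all probe sets lay on the same side of 0, and in 19 they did not. The median distance between the lowest and the highest probe set of a gene was 0.14 over these 32. Over all 57 genes the median size of a difference was 0.078. These are unlike measures, since the distance takes in dimmer probe sets that the gene value leaves out. Neither the distance nor the count on both sides of 0 was computed for all genes. Distances were largest for CDH6, CDH19 and PKP4. Among the tight junction genes with 3 or more probe sets they were 0.27 in CLDN23, 0.20 in CLDN18, 0.15 in CLDN19, 0.14 in CLDN11, 0.12 in OCLN and 0.041 in MARVELD3. The spread between replicates was smallest in the brightest class: the median SD within groups was 0.080 for the 22 member probe sets of the class of 8 to 16, 0.13 for the 55 of 4 to 8 and 0.14 for the 42 below 4.

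**Figure D4:**
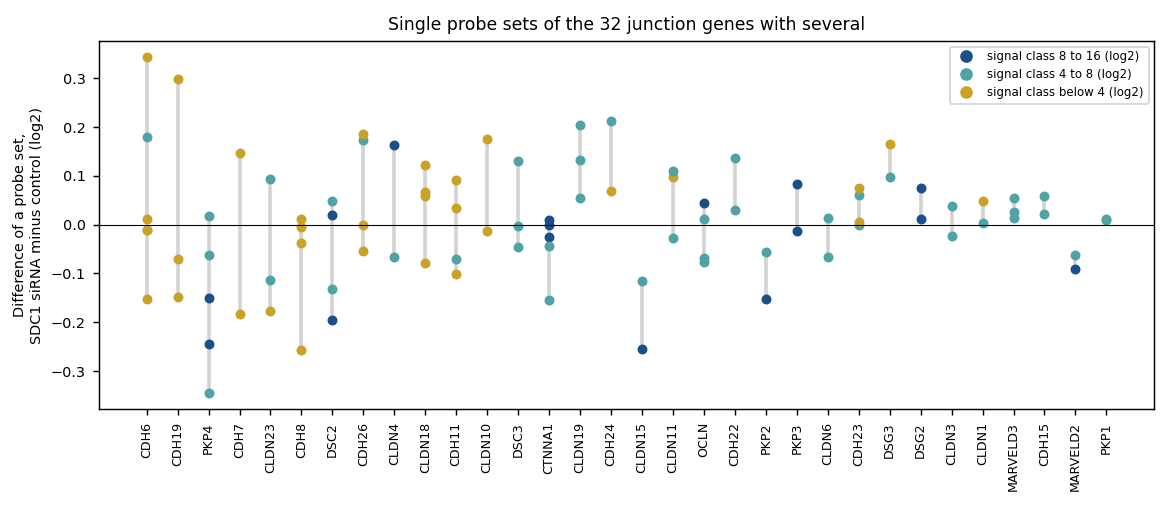
Each point is the difference of 1 probe set (SDC1 siRNA minus control siRNA, log2, vertical axis) for the 32 junction genes with several, coloured by signal class and ordered by the distance between lowest and highest, which a grey bar spans. PKP4 reaches from -0.34 to 0.017, and in 19 genes the bar crosses 0.

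Genes that carry no place in the rule but work at the same junctions were read from lists of known roles. Among 18 tight junction scaffolds and polarity proteins 1 changed: MPDZ, a scaffold with many PDZ domains that binds claudin tails, fell by 0.72 ± 0.067 on the log2 scale (limma adjusted p = 0.022, from 0.0112 to 0.177 over its 14 other settings). It missed the threshold with the replicate block (limma adjusted p = 0.0944) and whichever single array was left out (0.0647 to 0.177). The relative signals of MPDZ were 0.32, 0.31 and 0.38 in control replicates 1, 2 and 3 and -0.35, -0.45 and -0.36 in SDC1 siRNA replicates 1, 2 and 3. CGN, cingulin, a tight junction plaque protein that binds myosin, was at -0.37 ± 0.079 (limma adjusted p = 0.168), with separate groups. PALS1, a polarity scaffold, was the next by p, at -0.25 ± 0.078, and is named after its value was seen. In this list 12 genes were below 0 and 6 above, with 3 lower and 0 higher at an unadjusted p under 0.05, where 5.19% of all genes were lower and 5.43% higher. The median was -0.053.

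Further lists had 0 genes past the threshold. Beside the counts here, 10.6% of all genes had an unadjusted p under 0.05, 5.43% higher and 5.19% lower. Of 14 other adhesion molecules of junctions 1 had an unadjusted p under 0.05: CLMP, an adhesion molecule related to CXADR, at -0.35 ± 0.12. IGSF5, a junctional immunoglobulin protein, was at -0.30 ± 0.14, and at -0.16 without control replicate 3. Of 15 linkers of adherens junctions to actin, 0 had such a p, with ACTN1, an actinin, at 0.14 ± 0.071 and AJUBA, a LIM protein, at -0.12 ± 0.081 (-0.046 without control replicate 2). Of 9 desmosome and cornified envelope partners 8 were above 0 and 0 had such a p, with CDSN, corneodesmosin, at 0.28 ± 0.13 and EVPL, envoplakin, at 0.11 ± 0.078. CDSN was at 0.12 without control replicate 2, and EVPL at 0.058 without control replicate 1. KRT8 and KRT18, the keratins of simple epithelia, were at 0.091 ± 0.067 and 0.044 ± 0.065. Of 15 proteases and regulators of adhesion 2 were lower and 0 higher at an unadjusted p under 0.05, among them MYLK, the myosin light chain kinase that tightens the junctional actin ring, at -0.23 ± 0.076 (-0.051 over all its probe sets).

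**Figure D5:**
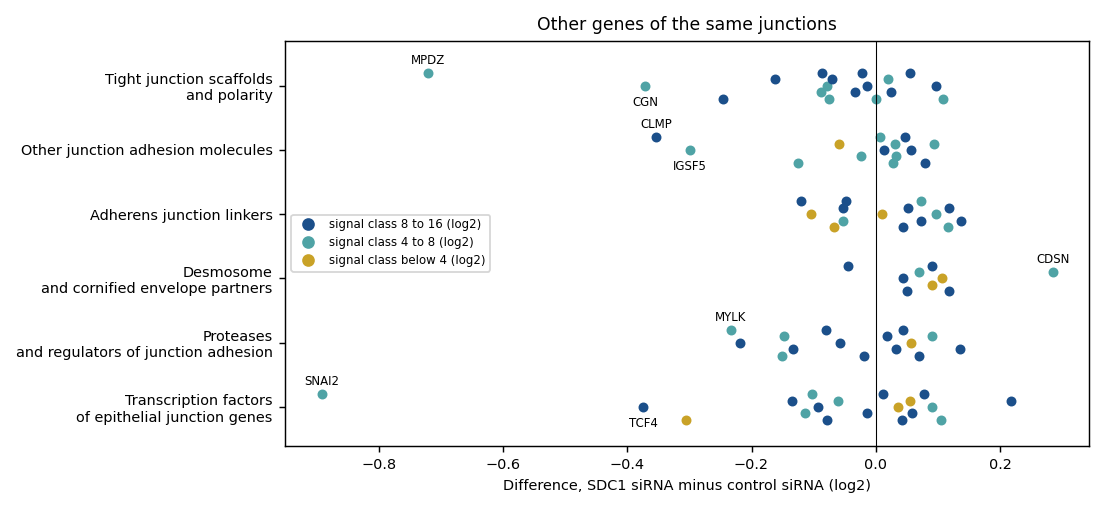
Each point is a gene of 6 lists of junction partners and regulators (rows), placed by its difference (SDC1 siRNA minus control siRNA, log2, horizontal axis) and coloured by signal class; of the 2 genes with the lowest p in a row, those at 0.2 or more in size are named, with 1 regulator left unnamed. MPDZ and SNAI2 lie farthest from 0, and of all genes drawn MPDZ alone passed the threshold.

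Transcription factors that act on junction genes were also read. SNAI2, the Slug repressor that binds E-boxes of epithelial genes, gave 0.28, 0.64 and 0.45 in control replicates 1, 2 and 3 and -0.59, -0.43 and -0.28 in SDC1 siRNA replicates 1, 2 and 3. Its SDC1 siRNA arrays were all below its controls. The difference was -0.89 ± 0.11 and did not pass over all genes (limma adjusted p = 0.067), while it did with array weights (limma adjusted p = 0.0362) and among genes of the brighter classes (limma adjusted p = 0.0439). In its other settings the limma adjusted p ran from 0.0588 to 0.401, with 0.0929 under the replicate block. TCF4, another E-box protein, was at -0.37 ± 0.075 (limma adjusted p = 0.159). Of the 19 factors 0 passed, and 3 (15.8%) were lower and 0 higher at an unadjusted p under 0.05, where 5.19% of all genes were lower and 5.43% higher. The last of the 3 was TWIST1, another repressor, at -0.31 ± 0.12, named after its value was seen. It has 1 probe set, in the class below 4, with control replicate 2 at 0.51 and the other controls at 0.10 and 0.036. SNAI1 at -0.10 ± 0.10, ZEB1 at -0.062 ± 0.069 and ZEB2 at 0.055 ± 0.082 had overlapping groups. Over the 19 factors 9 were above 0 and 10 below. RefSeq windows of 250 bases before a start were available for 38 of the 57 junction genes (62 windows, since some genes have several starts). The E-box was chosen with the SNAI2 value known. CAGGTG or CACCTG, searched on both strands as each is the reverse complement of the other, was in 11 of the 62 windows (17.7%) and in 17.5% of all 35116 windows. The 10 genes with it in any window were CDH23, CLDN7, CLDN14, CLDN18, DSC2, DSG1, DSG2, DSP, JUP and OCLN. Their differences ran from -0.20 for DSG1 to 0.19 for DSP, with a median of 0.038, 7 above 0 and 3 below. Over all 57 junction genes 36 were above 0 and 21 below. The differences of CDH23, CLDN14, CLDN18, DSG2 and JUP turned in sign when 1 array was left out. In the 28 genes with windows and no match the median was 0.0078, and differences ran from -0.60 for CDH10 to 0.32 for CLDN20. The windows of DSP and DSG2 printed above each hold a pair of matches, and the genes were at 0.19 and 0.043. A JUP window also holds a pair, with the gene at -0.0091, and a CLDN7 window holds 4, with the gene at 0.15. Whether matches bear on the differences was not tested.

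Markers of cell identity were checked as a whole. Beside the counts here, 10.6% of all genes had an unadjusted p under 0.05. Of 11 enterocyte and colon markers measured, which include the junction genes EPCAM and CDH17, 4 were in the class of 8 to 16 (CDX1, EPCAM, KRT8 and KRT18), 4 in that of 4 to 8 and 3 below 4 (CDH17, FABP1 and KRT20), and 0 had an unadjusted p under 0.05 in the limma fit. Of 10 fibroblast and muscle markers 0 were below 4 and 3 were in the class of 8 to 16 (COL1A1, COL1A2 and TAGLN). In this list 5 (50%) had an unadjusted p under 0.05, a larger share than over all genes. Of these 2 were higher (TAGLN at 0.37 and COL1A2 at 0.37) and 3 lower (LUM at -0.62, COL3A1 at -0.29 and PDGFRB at -0.24). The mean of the 10 markers ran from -0.083 to 0.047 in control arrays and from -0.015 to 0.017 in SDC1 siRNA arrays. Of 8 markers of layered epithelium and 4 of leukocytes 1 each had such a p, KRT5 at 0.26 and CD3E at 0.22. The layered epithelium list holds 4 of the junction genes (DSG1, DSG3, DSC3 and PKP1), and its mean ran from -0.10 to 0.049 in control arrays and from -0.0025 to 0.075 in SDC1 siRNA arrays. These markers outside the named rule were named after their values were seen. Whether other cells took part in any junction value was not tested.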

How the data were processed

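Caco-2 RNA was measured on 6 Affymetrix arrays, 3 for each siRNA. The deposited values are log2 signals, and RMA is the tool named by the submitters' processing notes (version not given in the sources used here). Every one of the 54675 probe sets in the table has a median of 0 over the 6 arrays (tolerance 1e-06), so the values are relative and hold no absolute level. The authors do not state this centring. The signal class was read from the spacing of the stored single-precision numbers (tolerance 0.1 of a step): 17.3% of probe sets fell in 8 to 16, 45.2% in 4 to 8 and 37.5% below 4. Signals on both sides of a bound give the lower class, and a few classes may be too high by chance.

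Names came from the platform annotation: 41091 probe sets have 1 gene symbol, 1801 several and 11721 none, and the 62 controls of the array were dropped. Those with several symbols were not used, which removes 8 that carry a member's symbol, and 5 antisense probe sets were not counted. Where a gene had several probe sets, the mean over those of its brightest class was used. Tests are the moderated fits of limma 3.58.1 (lmFit, eBayes and Benjamini-Hochberg adjustment, R 4.3.3), 1 over all probe sets and 1 over all genes. Nothing says that replicates came from separate cultures, so p-values reflect only how these arrays vary, which can be technical, and the number of arrays limits the precision. The script was tested on simulated data.

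Alternatives were a block for the replicate number, leaving out each array, repeated quantile normalization, median centring, array weights, robust eBayes, brighter classes only, other probe set summaries and stricter thresholds. Leaving out each array was extended to all 57 genes after seeing the data. Genes were named by role in the gut (22 symbols), by the 5 lowest p in each of the claudins, cadherins and desmosomal genes, by an unadjusted probe set p under 0.05, and by the 2 lowest p in each related list. Other members are given by count, range or role, and 1 regulator that the rule takes is not reported here. Members, lists, marker genes and role groups were chosen with earlier results of these data known. Promoter sequences and gene order came from RefSeq (GRCh38.p14).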

Additional observations from a re-analysis of the deposited data

How the results depend on the processing

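None of the 57 junction genes and 119 junction probe sets passed an adjusted p of 0.05 in any setting run. Of 422 recomputed values for the 31 junction genes named, 398 kept their direction and side of the threshold, 24 changed sign and 0 passed. Sign changes touched 13 genes. CLDN3 was at -0.020 and CDH17 at -0.021 with array weights, OCLN at -0.022 as the mean of all its probe sets, and DSC2 at 0.021 without the _x_at and _s_at probe sets. With single arrays left out the values ran from -0.12 to 0.18 for CLDN1, -0.051 to 0.052 for CLDN3, -0.029 to 0.0074 for CDH3, -0.10 to 0.11 for CDH17, -0.0048 to 0.077 for CDH19, -0.011 to 0.11 for DSG2, -0.27 to 0.037 for PKP2, -0.0042 to 0.066 for PKP3, -0.039 to 0.044 for JUP, -0.020 to 0.016 for CTNNA1 and -0.054 to 0.11 for EPCAM. The median over the junction genes (0.028) was 0.017 with array weights, 0.038 without the _x_at and _s_at probe sets and 0.0074 to 0.050 with single arrays left out. Junction probe sets at an unadjusted p under 0.05 numbered 6 to 12 (10 in the fit reported) with single arrays left out, where 5.64% to 9.99% of all probe sets had such a p. Those whose groups do not overlap (20) numbered 13 in the brighter classes, where fewer are tested (16.7% of all probe sets there), and 26 to 34 with single arrays left out, where smaller groups overlap less often (21.5% to 27.5% of all). Over all genes 5 passed, and 39 did with array weights, 11 in the brighter classes, 3 as the mean of all probe sets, 0 at an adjusted p of 0.01 and 0 to 1 with single arrays left out. Of single probe sets 0 passed (4547 had an unadjusted p under 0.05), and 3 did with array weights and 2 in the brighter classes. The causes were not tested. With the replicate number as a block 0 genes passed, in place of 5, and 8 junction probe sets had an unadjusted p under 0.05, as did 7.26% of all. No pairing by number was visible: deviations of same-numbered arrays correlated at 0.065, -0.19 and 0.063, and of the numbers only 3 correlated best with itself. Deviations from means of 3 arrays cannot exclude a pairing, and the labels do not say whether same-numbered arrays belong together. The number of arrays and, for 42 junction probe sets in the class below 4, a dim signal limit what can be seen.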
